A study of Homo sapiens with 12 samples.

Results

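Bacterial lipopolysaccharide (LPS) lowers as well as raises transcripts in macrophages, and 116 genes whose transcript level dropped to at most 1/3 in both genotypes of THP-1 cells were examined here. They were chosen from the 3281 genes on the authors' lists of LPS-responsive genes of either genotype. A gene was taken when the mean of the 3 libraries before LPS was at least 100 scaled reads in each genotype and the mean after LPS was at most 1/3 of it in each genotype. A scaled read is a read count divided by 1 size factor per library. Of the 120 genes that met these thresholds, 4 (MERTK, DAB2, LYL1 and SOX12) were left out, as the rule asks. THP-1 is a human monocytic leukaemia line. It was either wild type (WT) or carried the S80A form of NFKB1, whose p50 subunit of NF-κB has an alanine in place of a serine. All cells were first exposed to the phorbol ester PMA at 25 ng/ml for 72 hr, which drives these cells towards macrophages, and kept without it for 4 days. They were then collected untreated (0 hr) or after 3 hr of LPS at 10 ng/ml. The study asked how this serine shapes transcription under LPS. Each of the 4 groups, WT at 0 hr, WT at 3 hr, S80A at 0 hr and S80A at 3 hr, held 3 libraries. The labels do not say how the S80A cells were made, whether they are 1 clone, or whether the libraries of a group come from separate cultures, and a p-value here therefore reflects the spread between these libraries alone, which may be technical.

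LPS is sensed through TLR4, which activates NF-κB, MAP kinases and the interferon regulatory factors and sets off a large wave of induced transcripts. In the same hours many transcripts of the resting macrophage are lost, through less transcription, faster decay of the RNA, or both. The p50 subunit of NF-κB has no transactivation domain of its own. It acts as a partner of transactivating subunits and, as a dimer with itself, can occupy κB sites without activating them.

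Reads on the listed genes ranged from 1924562 to 5789918 per library, and the 116 genes took 5.08% to 6.77% of them at 0 hr and 0.434% to 0.622% at 3 hr. Along the second principal component of the listed genes, which held 17.65% of the variance, S80A replicate 1 lay at 16.73 at 0 hr and 16.87 at 3 hr, while the other S80A libraries lay between 32.68 and 46.7 and all WT libraries below 0. Counts of called genes are given with and without S80A replicate 1, and results of single genes only where stated. The monocyte marker CD14, a co-receptor for LPS, had 2286 to 2631 scaled reads in WT and 2245 to 6211 in S80A at 0 hr, and the myeloid factor CEBPB 305 to 640 and 459 to 1661. Of the 8 precursor markers 2 were listed, CD34 and GFI1, and their sum at 0 hr was 2216 to 2509 in WT and 439 to 745 in S80A. CD79B, a marker of B cells, was at 45.8 scaled reads or less in every library. Markers of T cells, NK cells, epithelium, fibroblasts and endothelium were not among the listed genes and were not analysed here. In bulk RNA, fewer cells of a type and less RNA per cell cannot be told apart.

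The rule used the LPS contrast, so the loss itself is described without a test. The median share of the 0 hr level left at 3 hr was 21.9% in WT (range 1.52% to 33.2%) and 22.7% in S80A (2.51% to 33.1%). The median level of the 116 genes went from 375 to 86.6 scaled reads in WT and from 513 to 95.2 in S80A. Under 10% was left for 8 genes in WT and 11 in S80A, and under 20% for 46 and 43. The authors listed 114 of the 116 as falling in both genotypes, where 15.5% of all listed genes were. The exceptions were ID3, listed in S80A only, and TNFRSF11A, listed in WT only. The other genes listed as falling in both genotypes had a median share left of 36.4% in WT and 36.0% in S80A. Every 3 hr library lay below every 0 hr library for 115 of the genes in WT and 113 in S80A, against 38.0% and 36.5% of all listed genes. The groups overlapped for ID3 in WT and for LPAR5, OPRL1 and TNFRSF11A in S80A. With the libraries rescaled by the trimmed mean of M-values (TMM) over the listed genes, of which more rose than fell, the median shares left were 14.2% and 14.7%, and 437 genes in place of 116 met the rule. The shares left in the 2 genotypes were within 1.5 times of each other for 82 genes and within 2 times for 104.

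**Figure D1:**
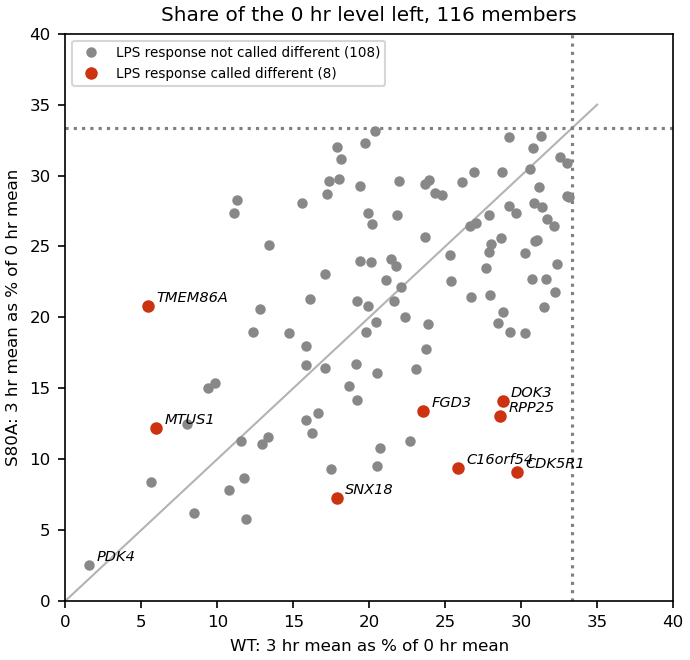
Share of the 0 hr mean left at 3 hr (%) in WT (horizontal axis) and S80A (vertical axis), 1 point per gene, with the diagonal of equal shares and dotted lines at the limit of the rule. The 8 genes in red passed the limma test for a different LPS response, and PDK4 lies nearest to the origin, at 1.52% and 2.51%.

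Genes at the edges of the rule lay close to it. ZFP14 was inside at 100.02 scaled reads in WT and 109 in S80A, while RAB11FIP4 was outside at 99.6 in WT and CCDC112 outside at 98.4 in S80A. ABHD8 was inside with 33.16% left in WT and CNIH3 with 33.11% in S80A. STARD13, with 33.37% left in S80A, and FAM217B, with 33.46% left in WT, were outside.

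PDK4, the mitochondrial kinase that switches off pyruvate dehydrogenase, had the smallest share left in both genotypes. Its WT libraries held 106, 191 and 207 scaled reads at 0 hr and 2.35, 1.04 and 4.28 at 3 hr. Its S80A libraries held 506, 261 and 602 at 0 hr and 16.8, 10.4 and 7.19 at 3 hr. Every library after LPS was far below every library before it, but the WT value at 3 hr rested on 7 reads in all, so the share left of 1.52% had a counting interval of 0.612% to 3.14% (95%, exact Poisson, counting error of the 3 hr reads only). The other enzymes of metabolism were less deeply lowered. PFKFB4, which sets the level of the glycolytic activator fructose bisphosphate, kept 23.9% in WT and 19.5% in S80A. TMEM86A, a lysoplasmalogenase that cleaves ether-linked lysolipids, kept 5.44% in WT and 20.8% in S80A and is taken up again below. MMACHC, which processes cobalamin, and the mitochondrial hydrolase ABHD10 kept between 23.7% and 32.4%. Over the 8 metabolic and glycan enzymes the median was 23.4% in WT and 20.2% in S80A.

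RNF125 and USP2, both of the ubiquitin system, had the next smallest shares left over the 2 genotypes. Their class as a whole was not lowered more than the rest. Its 8 genes of ubiquitin, proteolysis and autophagy had medians of 22.2% in WT and 21.4% in S80A, against 21.9% and 22.7% for all 116. RNF125, a ubiquitin ligase known for marking RIG-I for degradation, had 204, 165 and 228 scaled reads in WT at 0 hr and 8.22, 13.5 and 11.8 at 3 hr. In S80A it had 199, 132 and 165 and then 15.7, 12.7 and 13.2, so the genotypes lay on top of each other at both times. USP2, a deubiquitinase under circadian control, had 359, 477 and 474 in WT and 933, 1560 and 1364 in S80A at 0 hr. After LPS it held 43.5, 34.3 and 33.2 in WT and 49.3, 93.2 and 97.1 in S80A. The share of USP2 left was alike, 8.47% and 6.21%, although every S80A library stood above every WT library at both times. ATG4C, a protease of autophagy, kept 20.1% and 23.9%, and the ligase RNF166 30.3% and 18.9%.

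**Figure D2:**
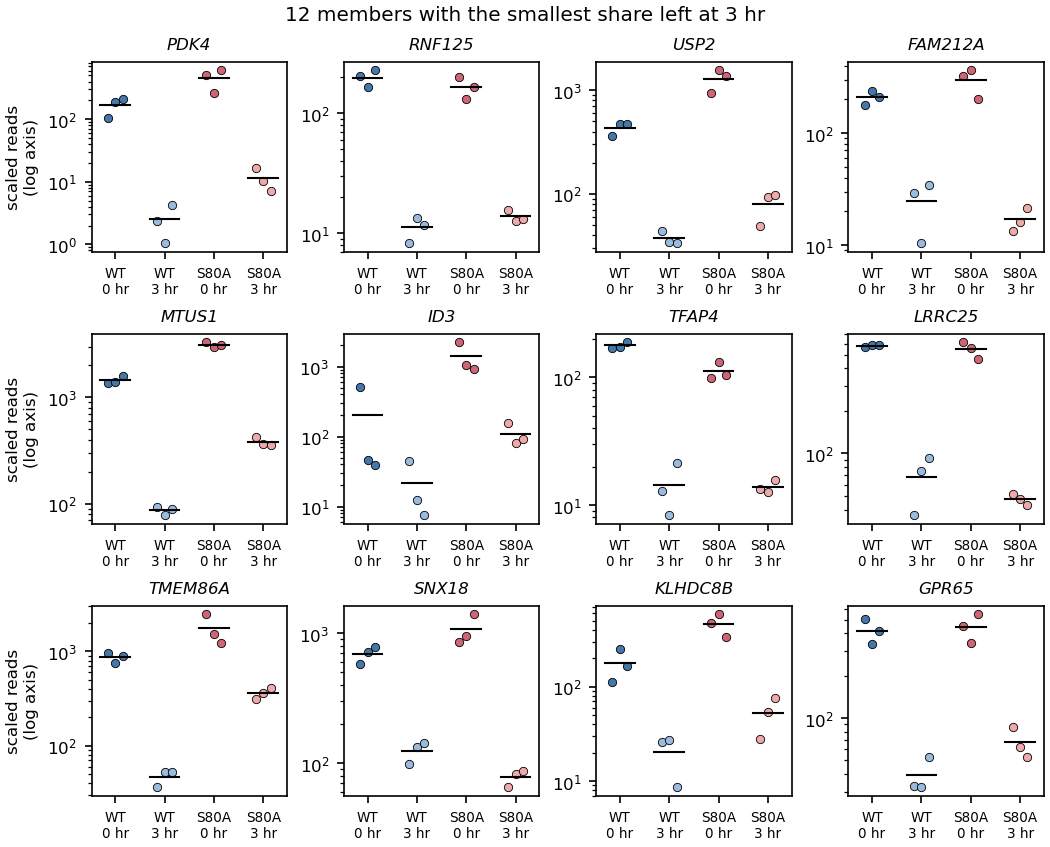
Scaled reads per library (log axis) of the 12 genes with the smallest share left, in the 4 groups, with 1 point per library and a bar at the mean of 3. All 12 show 3 hr points below the 0 hr points in both genotypes except ID3, where WT replicate 1 at 3 hr (44.6) is above WT replicate 3 at 0 hr (38.7).

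Among 13 surface receptors and ligands the median share left was 17.9% in WT and 27.4% in S80A. No gene of this class passed the limma test for a different LPS response in the main fit. CD180, a Toll-like receptor without the intracellular signalling domain that tempers TLR4 signalling, had 611, 840 and 932 scaled reads in WT at 0 hr and 69.3, 73.7 and 121 at 3 hr. In S80A it had 946, 977 and 691 and then 141, 294 and 279, so that the 3 hr libraries of S80A all lay above those of WT while the 0 hr libraries overlapped. IFNGR1, the ligand-binding chain of the interferon-γ receptor, was the most abundant receptor of the group. It had 8709, 7963 and 9963 scaled reads in WT and 17240, 14026 and 16439 in S80A at 0 hr, and 2810, 2413 and 2547 against 6116, 4431 and 5073 at 3 hr. GPR65, a receptor that senses protons, kept 9.39% in WT and 15.05% in S80A. LRRC25, a leucine-rich membrane protein of myeloid cells, kept 11.8% and 8.67%, and the cytokine TNFSF14 (LIGHT) 23.8% and 17.8%.

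For 3 receptors S80A replicate 1 was unlike the other S80A libraries before LPS. LPAR5, a receptor for lysophosphatidic acid, had 225 scaled reads there against 50.4 and 55.6 in replicates 2 and 3, while the WT libraries had 261, 204 and 210. TNFRSF11A (RANK) had 556 there against 104 and 73.5, with 589, 492 and 550 in WT. OPRL1, the nociceptin receptor, had 253 against 110 and 64.0, with 275, 196 and 136 in WT. These are the 3 genes whose S80A groups overlapped, and TNFRSF11A and OPRL1 are named because of it. Without S80A replicate 1 at 0 hr the mean level of S80A is below the limit of 100 for all 3. With all libraries none of the 3 was called lower in S80A at 0 hr. Without that replicate LPAR5 and TNFRSF11A were, at -2.06 and -2.62 (log2, limma adjusted p = 0.00292 and 0.00226). OPRL1 did not pass then either (-1.20, limma adjusted p = 0.0782).

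Signalling proteins made up the largest class, with 21 genes and median shares left of 22.3% in WT and 21.3% in S80A. DUSP7, a phosphatase of ERK, had 1809, 2161 and 1843 scaled reads in WT and 3536, 5012 and 4504 in S80A at 0 hr, and kept 22.3% and 20.0%. PRR5L, a binding partner of the mTOR complex that phosphorylates AKT, had 165, 154 and 123 in WT but 1122, 1623 and 1385 in S80A at 0 hr. It had 20.0, 32.2 and 39.6 in WT and 67.3, 182 and 197 in S80A at 3 hr. SESN1, a stress-induced restraint on mTOR, kept 22.0% and 29.6%. The pair of GSK3-binding proteins FRAT1 and FRAT2, which favour WNT signalling, kept 16.1% and 19.1% in WT and 21.3% and 16.7% in S80A. NLRC4, an inflammasome sensor subunit, kept 12.9% and 11.1%, and MAP3K1, a kinase upstream of JNK, 28.0% and 21.5%. RGS14 and RGS19, which speed the shut-off of heterotrimeric G proteins, kept 19.7% and 28.5% in WT and 32.3% and 19.6% in S80A.

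The 11 small GTPases and regulators of GTPases kept a median of 21.8% in WT and 21.2% in S80A. FGD4, an exchange factor for CDC42, had 437, 319 and 364 scaled reads in WT at 0 hr and 90.4, 46.7 and 49.2 at 3 hr. In S80A it had 531, 414 and 547 and then 118, 48.3 and 31.2. ARHGAP12, a GTPase-activating protein, kept 19.2% and 21.2%, and RHOBTB2, an atypical GTPase, 18.7% and 15.1%. RIN1, a Ras effector that activates RAB5, kept 31.5% and 20.7%. Of traffic, cytoskeletal and centrosomal proteins there were 11, with medians of 24.8% and 25.6%. MTUS1, a microtubule-binding protein, stood out among them with 5.97% left in WT and 12.2% in S80A. PCM1, the scaffold of the centriolar satellites, had the highest level of the 116 genes, 10258 ± 598 scaled reads in WT and 19450 ± 649 in S80A at 0 hr (mean ± SD, n = 3). It kept 31.3% and 32.8%, near the limit of the rule.

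The 15 transcription factors and chromatin proteins kept medians of 20.5% in WT and 23.9% in S80A. MAF, a bZIP factor that maintains macrophage identity, had 1618, 2192 and 2333 scaled reads in WT at 0 hr and 321, 320 and 410 at 3 hr. In S80A it had 4509, 3708 and 5783 and then 734, 748 and 814, so S80A was above WT in every library at both times while the shares left were 17.1% and 16.4%. TFAP4, a basic helix-loop-helix factor, had 171, 174 and 187 in WT and 98.6, 130 and 105 in S80A at 0 hr. At 3 hr the genotypes overlapped, with 12.9, 8.30 and 21.4 in WT and 13.5, 12.7 and 15.6 in S80A. HHEX, a homeobox factor of blood progenitors, kept 17.4% and 9.33%.

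ID3, which blocks helix-loop-helix factors by dimerising with them, had its WT level set by 1 library. WT replicate 1 held 516 scaled reads at 0 hr, and replicates 2 and 3 held 45.8 and 38.7. After LPS these libraries held 44.6, 12.5 and 7.49. In S80A it had 2212, 1067 and 928 before and 155, 80.5 and 93.5 after LPS. The share of ID3 left in S80A was 7.81%. Without WT replicate 1 at 0 hr, ID3 is under the level limit of the rule.

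The circadian output list gave 3 of the 116 genes, out of 10 listed, of which 5 were listed as falling in both genotypes. USP2 is given above. DBP, a PAR bZIP activator and classical output of the clock, had 224, 273 and 245 scaled reads in WT at 0 hr and 21.1, 56.1 and 32.1 at 3 hr. In S80A it had 246, 218 and 148 and then 31.4, 50.6 and 33.6, with shares left of 14.7% and 18.9%. CIPC, a CLOCK-interacting repressor, kept 27.9% and 24.6%. PER1, PER3 and TEF were listed as falling in at least 1 genotype but did not meet the rule.

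HHEX, ID3 and MAF were among 27 listed myeloid transcription factors, of which 7 were listed as falling in both genotypes. Of 99 listed zinc finger genes picked by symbol (ZNF, ZBTB and related symbols), 36 were listed as falling in both. Of these 99, 3 met the rule (ZFP14, ZNF395 and ZNF589), with shares left of 22.7% to 33.0%. The zinc finger genes KLF16 and SNAI3 also met the rule but lie outside this list by symbol. Of 46 listed exchange and activating proteins of small GTPases 13 fell in both and 4 met the rule (ARHGAP12, FGD3, FGD4 and RIN1). RGS14 and RGS19 came from 9 listed RGS and G protein genes, and PRR5L and SESN1 from 16 phosphoinositide and mTOR genes, each with 3 listed as falling in both. A single gene met the rule among 24 purine and lipid mediator receptors (LPAR5), 9 Toll-like receptors and relatives (CD180), and 8 Fc and inhibitory receptors (LRRC25). The same held for 11 DNA repair and nuclease genes (EEPD1, with 9.83% and 15.4% left), 13 lysosome and lipid genes (TMEM86A) and 18 ubiquitin-specific proteases (USP2). No gene met the rule among 8 chemokine receptors, 6 scavenging and complement genes and 13 genes of a homeobox and SOX list. Nor did any of 16 TGF-β and SMAD genes, 27 apoptosis genes and 8 signs of RNA quality. This was after MERTK, DAB2 and SOX12 were left out. The homeobox list did not hold every homeobox gene, as HHEX was counted with the myeloid factors. In all, 116 of 3281 listed genes met the rule, and 22.4% of those listed as falling in both genotypes.

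The start regions were searched for short motifs, a feature that the rule did not use. RefSeq (GRCh38.p14) start regions were at hand for 90 of the genes, and the 250 bases before the start were read on both strands. The cyclic AMP response element TGACGTCA was in 5.56% of them. It was in 2.31% of the other genes listed as falling in both genotypes, 2.64% of genes listed as rising in both and 1.77% of all 27305 start regions. The PU.1 core GAGGAAGT, a letter string bound by the myeloid factor PU.1, was in 6.67%, against 3.96%, 3.56% and 2.13% of these sets in the same order. TATAAA was in 4.44%, close to the 4.95% of the other falling genes, against 12.5% of the rising genes and 11.1% of all. The interferon and STAT element (GAAA, any 2 bases, GAAA) was in 0 of the 90 and in 1.32% of the other falling genes, against 6.73% of the rising genes and 3.07% of all. The shares of both were low in the other falling genes too. The NF-κB core (GGGA, any 4 bases, CC) was in 28.9%, against 28.4% of the other falling genes, 34.4% of the rising genes and 22.1% of all. CCAAT was in 41.1%, against 33.3%, 31.8% and 33.0%, and the GC box GGGCGG in 65.6%, against 69.0%, 65.0% and 42.3%, in the same order. Shares of 5 or 6 genes in 90 are small numbers, and a match is a description of letters, not of binding.

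**Figure D3:**
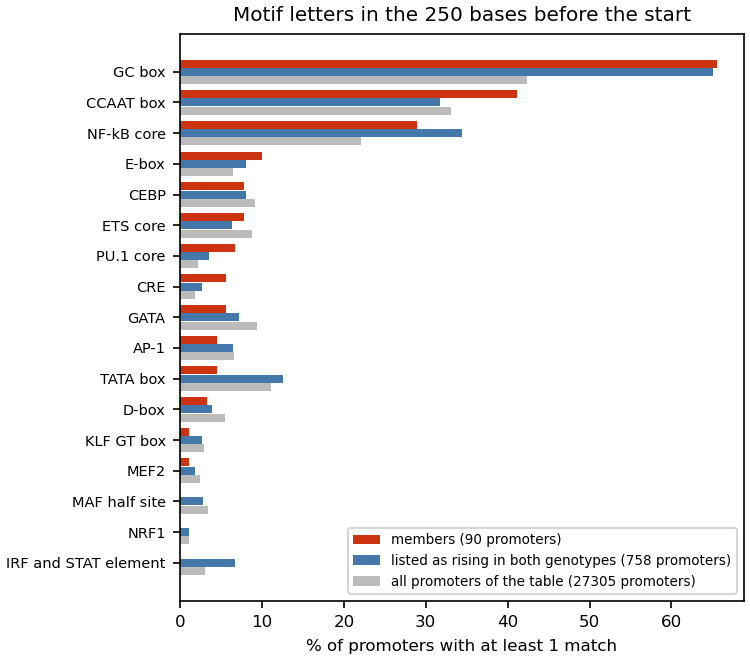
Share of start regions (%) with at least 1 match to each of 17 motifs in the 250 bases before the start, for the genes described (red), genes listed as rising in both genotypes (blue) and all start regions (grey). The interferon and STAT element is at 0 for the 90 genes and at 6.73% for the rising genes.

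The 5 genes with the cyclic AMP response element are shown because this element was more frequent in these genes than in the 3 comparison sets. Capitals mark the element, the strand is that of the gene, and positions are on GRCh38.p14. AVPI1 is chr10:97687450-97687491 on the minus strand, FRAT1 chr10:97319200-97319259 on the plus strand, MAF chr16:79600749-79600808 on the minus strand, PDE7B chr6:135851520-135851579 on the plus strand and TMEM86A chr11:18698702-18698761 on the plus strand.
AVPI1: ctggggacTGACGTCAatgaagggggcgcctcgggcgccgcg
FRAT1: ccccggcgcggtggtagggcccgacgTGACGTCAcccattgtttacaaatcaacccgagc
MAF: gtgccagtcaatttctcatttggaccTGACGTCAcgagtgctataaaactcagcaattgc
PDE7B: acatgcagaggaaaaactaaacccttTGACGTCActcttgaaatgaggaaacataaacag
TMEM86A: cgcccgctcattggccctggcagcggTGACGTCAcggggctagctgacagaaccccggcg
The element began 45 bases before the start in both FRAT1 and MAF, 51 bases in TMEM86A, 155 bases in PDE7B and 242 bases in AVPI1. The 5 genes are a bZIP factor (MAF), a phosphodiesterase that degrades cyclic AMP (PDE7B), a GSK3-binding protein (FRAT1), a lysoplasmalogenase (TMEM86A) and a vasopressin-induced protein (AVPI1). Their shares left in WT ran from 5.44% for TMEM86A to 27.7% for AVPI1.

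RGS19 and OPRL1 lie head to head on chromosome 20 with 185 bases between them, and their start regions share 1 PU.1 core. It is shown on the strand of RGS19 at chr20:64079980-64080039 (minus strand, GRCh38.p14), with the core in capitals.
RGS19: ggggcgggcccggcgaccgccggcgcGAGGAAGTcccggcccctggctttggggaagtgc
RGS19 kept 28.5% in WT and 19.6% in S80A, and OPRL1 26.9% and 30.2%. The other genes with the core were B3GNT8, CALHM2, LRMP and SH3TC1. Of the 108 genes placed in GENCODE 29, 19 neighbouring pairs lay within 1 Mb of each other, among them FRAT1 and FRAT2 with 10582 bases between them and SNAI3 and RNF166 with 10002. The genes were shorter than other listed genes, with a median span of 17.4 kb against 23.7 kb for the other genes listed as falling in both genotypes and 30.4 kb for those listed as rising in both. A gene on the opposite strand overlapped 53 of the 108, and since the strand setting of the counting is not given in the sources used here, reads of such partners may be included.

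Before LPS, S80A cells held more of many of these transcripts than WT cells. In the limma test over all listed genes, with Benjamini-Hochberg adjusted p under 0.05, 35 of the 116 were higher in S80A at 0 hr, or 30.2%, against a background of 20.3% of all listed genes and 22.6% of those at 100 or more at 0 hr in both genotypes. Lower in S80A were 5, or 4.31%, against 10.7% and 9.87%. The other 76 did not pass, and 55 of the 116 had an unadjusted p under 0.05. The rule used these 0 hr means, as a level of 100 or more and as the base of the share left. The shares beside the background are therefore a description of chosen genes, not a test of them as a group. The fit did not pair libraries by replicate number. The median difference was 0.33 (log2) for the 116 and 0.19 for all listed genes. TMM scaling over the listed genes lowered the differences of all genes by 0.23 (log2, median), and the split was then 24 higher and 7 lower. The number higher went down to 22, 18 and 21 without WT replicate 1, 2 or 3 and to 21 without S80A replicate 2, and was 33 without S80A replicate 1. The number lower was 1, 1 and 2 without each WT replicate, 3 without S80A replicate 2 and 9 without S80A replicate 1. The summed CD34 and GFI1 level given above also differed between genotypes at 0 hr, and its part in these differences was not tested.

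PRR5L, with the library values given above, was 3.21 ± 0.19 higher in S80A at 0 hr (log2 difference ± SE, limma adjusted p = 0.00173, 3 libraries a group). CNIH3, an auxiliary subunit of AMPA receptors, had 273, 323 and 326 scaled reads in WT and 898, 1878 and 1732 in S80A. Its difference was 2.22 ± 0.30 (limma adjusted p = 0.0065). PKDCC, a secreted tyrosine kinase, had 305, 236 and 227 in WT and 1014, 1157 and 934 in S80A, a difference of 2.02 ± 0.16 (limma adjusted p = 0.00278). In each of these the lowest S80A library was more than 2 times the highest WT library. FAM109A, an endosomal protein, was higher by 1.61 ± 0.14, USP2 by 1.54 ± 0.23, MAF by 1.18 ± 0.22, DUSP7 by 1.16 ± 0.16, MTUS1 by 1.10 ± 0.10, PCM1 by 0.92 ± 0.12 and CIPC by 0.74 ± 0.09. All 10 of these calls were made in each of the 15 alternative fits. IFNGR1 was higher by 0.84 ± 0.15 and SESN1 by 0.87 ± 0.18. Their limma adjusted p of 0.0136 and 0.0181 became 0.0501 and 0.0506 without WT replicate 1 and 0.0572 and 0.066 without WT replicate 2. ID3 passed narrowly, at 3.72 ± 1.07 (limma adjusted p = 0.0496, 95% interval 1.04 to 6.40). It did not pass without WT replicate 2 or 3 (0.142 and 0.137) or without any of the S80A replicates (0.0921 to 0.119), nor with TMM scaling (0.0616) or a pseudocount of 0.5 (0.0518).

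Of the 5 genes lower in S80A at 0 hr, PSRC1, a spindle protein, had 682, 655 and 553 scaled reads in WT and 264, 284 and 142 in S80A. MMACHC had 257, 221 and 213 in WT and 111, 123 and 98.7 in S80A. The groups were apart for both. The differences were -1.51 ± 0.29 for PSRC1 (limma adjusted p = 0.0161) and -1.05 ± 0.15 for MMACHC (limma adjusted p = 0.0076). The call on MMACHC was made in all 15 alternative fits, and that on PSRC1 was lost without WT replicate 1 (0.0583) or 2 (0.0609). TFAP4, SAC3D1 and ABHD10 differed by -0.68, -0.94 and -0.69, and each call was lost when any WT replicate was left out (limma adjusted p 0.0713 to 0.121). Without S80A replicate 2 the adjusted p was 0.0974 for SAC3D1 and 0.117 for ABHD10, without replicate 3 it was 0.0569 for TFAP4 and 0.0562 for SAC3D1, and without replicate 1 it was 0.0786 for ABHD10. With the replicate number as a block TFAP4 had 0.054, and in a fit of all 12 libraries 0.106.

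After LPS, 31 of the 116 were higher in S80A, or 26.7%, against a background of 30.1% of all listed genes and 32.8% of those at 100 or more at 0 hr. Lower were 10, or 8.62%, against 17.7% and 16.6%. The share of these genes that was higher was thus near the background at 3 hr. The rule bounds each 3 hr mean by 1/3 of the 0 hr mean, so these counts too rest on values it used. The median difference was 0.29 for the 116 and 0.19 for all listed genes. TMM scaling lowered the differences of all genes by 0.21, and the split was then 18 higher and 15 lower. Without WT replicate 2 or 3, 16 or 20 were higher, and without S80A replicate 2 or 3, 14 or 19 were. Without S80A replicate 1, 46 were. The number lower was 5 without WT replicate 3 and 6 without S80A replicate 2. Of the 54 genes called at either time, 22 were higher in S80A at both and 4 were lower at both (PSRC1, MMACHC, SAC3D1 and ABHD10). The matching counts over all listed genes were not made, so these do not show anything particular to the 116.

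**Figure D4:**
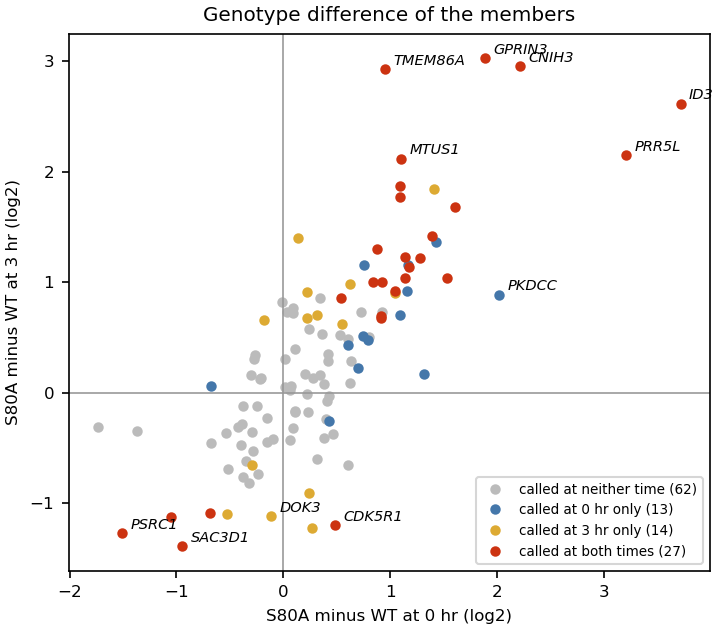
Difference between S80A and WT (log2) at 0 hr (horizontal axis) and 3 hr (vertical axis), 1 point per gene, coloured by the time at which limma called it. CDK5R1 is the only gene called in opposite directions, at 0.48 and -1.20, and its call at 0 hr was made in 5 of 15 alternative fits.

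The largest difference at 3 hr was that of GPRIN3, a G protein-regulated protein of neurites. Its WT libraries held 350, 129 and 165 scaled reads at 0 hr and 21.1, 20.8 and 31.0 at 3 hr. Its S80A libraries held 815, 624 and 762 and then 259, 215 and 147, a difference of 3.03 ± 0.30 at 3 hr (limma adjusted p = 0.000442). CNIH3 was higher by 2.95 ± 0.34, PRR5L by 2.15 ± 0.46, SESN1 by 1.30 ± 0.18, MAF by 1.13 ± 0.19, and IFNGR1 and PCM1 by 1.00 ± 0.18 and 1.00 ± 0.16. These 7 calls were made in each of 15 alternative fits. ID3 was higher by 2.62 ± 0.61 (limma adjusted p = 0.00957), a call made in each of 14. CD180 was higher by 1.40 ± 0.36 (limma adjusted p = 0.0146), with 0.0507 without WT replicate 1, 0.0573 without WT replicate 2 and 0.0541 without S80A replicate 2. PDK4, which did not pass at 0 hr (1.41 ± 0.42, limma adjusted p = 0.0522), was higher by 1.84 ± 0.51 at 3 hr (0.0198). Without WT replicate 2 or S80A replicate 2 its 3 hr adjusted p was 0.0668 or 0.0546.

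The LPS response itself differed between genotypes for 8 of the 116 genes in the limma interaction test over all 12 libraries, or 6.90%, against 15.5% of all listed genes and 14.8% of those at 100 or more at 0 hr. By direction, 2 genes were less lowered in S80A, against 7.92% of all listed genes and 8.38% of those at 100 or more, and 6 were more lowered, against 7.56% and 6.4%. The rule keeps genes lowered in both genotypes, so it limits how far the responses can differ. The first were TMEM86A and MTUS1 and the second CDK5R1, C16orf54, SNX18, RPP25, DOK3 and FGD3. For the other 108 genes no difference was detected. Over all 116 the median half-width of the 95% interval was 0.81 (log2), and 14 of the 116 had an unadjusted p under 0.05. Without S80A replicate 1 at both times, 7 were less lowered and 5 more lowered. With the replicate number as a block, 4 were less lowered and 8 more lowered, namely the same 8 genes and CD180, EVI2B, HHEX and RNF166 (limma adjusted p 0.0379 to 0.0485), of which RNF166 is outside the rule for named genes.

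TMEM86A had 967, 744 and 894 scaled reads in WT and 2461, 1537 and 1240 in S80A at 0 hr. At 3 hr it had 36.4, 52.9 and 52.5 in WT and 314, 365 and 410 in S80A, where the lowest S80A library stood far above the highest WT library. Its response differed by 1.97 ± 0.36 (log2, limma adjusted p = 0.00477, 95% interval 1.19 to 2.76), and by 2.35 without S80A replicate 1. MTUS1 had 1376, 1408 and 1583 in WT and 3297, 2966 and 3118 in S80A at 0 hr. At 3 hr it had 94.0, 77.9 and 88.9 in WT and 426, 362 and 354 in S80A. Its response differed by 1.01 ± 0.22 (limma adjusted p = 0.0114, 95% interval 0.53 to 1.5). Both genes were thus higher in S80A before LPS, although TMEM86A only just passed there (limma adjusted p = 0.0495, lost without any WT replicate, at 0.0946 to 0.145, and without S80A replicate 2, at 0.11, and at 0.119 with TMM scaling), and more so after it.

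CDK5R1, the p35 activator of the kinase CDK5, moved the other way. It had 261, 304 and 295 scaled reads in WT and 446, 388 and 372 in S80A at 0 hr, but 112, 57.1 and 86.7 in WT and 24.7, 36.8 and 48.0 in S80A at 3 hr. S80A libraries were thus all above WT before LPS and all below after it, and the response differed by -1.68 ± 0.40 (log2, limma adjusted p = 0.017, 95% interval -2.55 to -0.81). C16orf54, a membrane protein of unassigned role, had 628, 645 and 623 in WT and 729, 846 and 722 in S80A at 0 hr. It had 202, 130 and 158 in WT and 53.8, 56.4 and 104 in S80A at 3 hr, a difference in response of -1.499 ± 0.36 (limma adjusted p = 0.0176). The genotype difference of CDK5R1 at 0 hr (0.48, limma adjusted p = 0.0337) was lost with TMM scaling (0.194), with the replicate block (0.0763) and without each library except S80A replicate 3 (0.055 to 0.0973). That at 3 hr (-1.20, limma adjusted p = 0.0259) was lost without WT replicate 1 (0.0822), WT replicate 3 (0.0884) or S80A replicate 2 (0.0618). The interaction of CDK5R1 and C16orf54 and of TMEM86A and MTUS1 was called in all 21 alternative fits.

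The other 4 calls were less firm. DOK3, an adaptor that dampens immunoreceptor signals, had 2375, 2768 and 2662 scaled reads in WT and 2915, 2586 and 1830 in S80A at 0 hr, where the genotypes overlapped. At 3 hr it had 788, 683 and 774 in WT and 368, 309 and 356 in S80A, which did not overlap (difference -1.12 ± 0.18, limma adjusted p = 0.00201). SNX18, a sorting nexin of endocytosis, had 575, 722 and 786 in WT and 862, 952 and 1396 in S80A at 0 hr, and 97.5, 132 and 142 against 65.0, 81.7 and 86.3 at 3 hr. RPP25, a subunit of the RNA-processing enzymes RNase P and RNase MRP, kept 28.6% in WT and 13.1% in S80A. FGD3, an exchange factor for CDC42 like FGD4, kept 23.5% and 13.4%. The interaction was -1.004 ± 0.26 for DOK3, -1.26 ± 0.34 for SNX18, -1.15 ± 0.30 for RPP25 and -0.80 ± 0.25 for FGD3. Their limma adjusted p were 0.0239, 0.026, 0.0251 and 0.0484. Without WT replicate 3 at 3 hr these became 0.0597, 0.0691, 0.0645 and 0.0951, and without WT replicate 1 at 0 hr 0.058, 0.0645, 0.0601 and 0.0824. DOK3 was also lost without WT replicate 3 or S80A replicate 2 at 0 hr or S80A replicate 2 at 3 hr, RPP25 without WT replicate 3 or S80A replicate 2 at 0 hr or WT replicate 2 at 3 hr, and SNX18 without WT replicate 2 at either time. In a fit of only the genes listed in both genotypes the adjusted p was 0.0537 for DOK3, 0.0576 for SNX18, 0.0563 for RPP25 and 0.108 for FGD3. FGD3 was also lost with TMM scaling (0.0561) and without any single library except S80A replicate 3 at 0 hr and S80A replicate 1 at 3 hr.

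**Figure D5:**
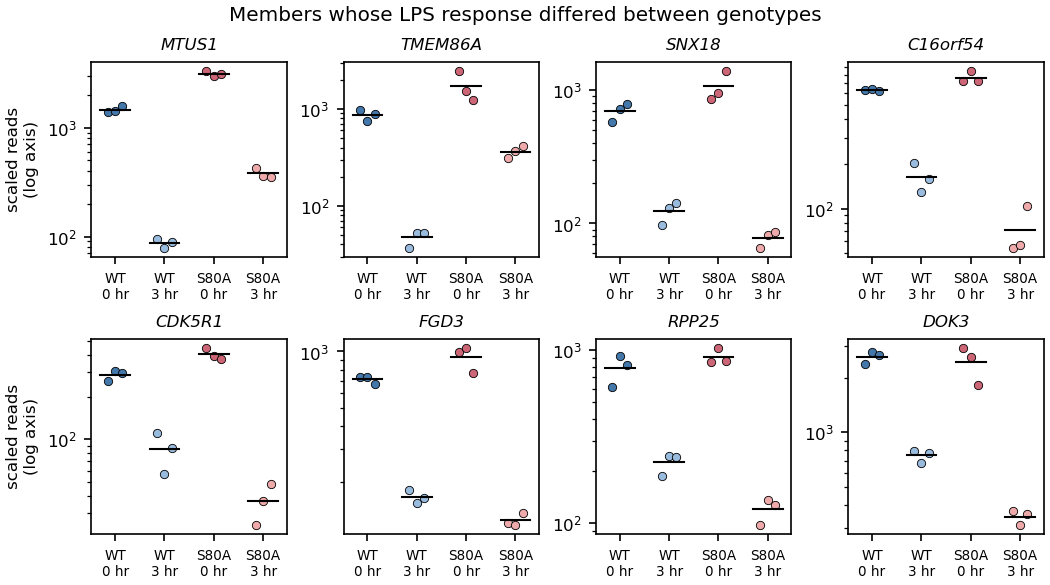
Scaled reads per library (log axis) of the 8 genes whose LPS response differed between genotypes by the limma interaction test, with 1 point per library and a bar at the mean of 3. TMEM86A and MTUS1 keep more in S80A after LPS, and the other 6 keep less.

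CD180 and TNFRSF11A had differences of response of 1.26 ± 0.44 and 1.42 ± 0.77 that did not pass without the block (limma adjusted p = 0.0695 and 0.22). Without S80A replicate 1 at both times they were 1.67 and 2.22, with limma adjusted p of 0.00923 and 0.000875. The authors' log2 fold change of TNFRSF11A in WT was -2.29, so without that replicate little of its fall in S80A is left. RGS14, SH3TC1 and LPAR5 also passed without that replicate, at 1.08, 1.09 and 1.13, and FGD3 no longer passed (0.0593). SH3TC1 and TNFRSF11A are outside the rule for named genes and were picked for these values.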

How the data were processed

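Poly(A) RNA of the 12 THP-1 libraries was sequenced on 1 end for 75 bases, per the labels' protocols. The submitters' processing notes list GRCh38, DESeq2, HTSeq, Cuffdiff, StringTie, HISAT and FastQC. For annotation and strand setting nothing is given in the sources used here. The deposited signal is the authors' count per gene over a size factor of the library (0.834 to 1.29), as the values show: 100% were whole reads to within 0.01 reads. The authors' deposited log2 fold changes and p-values come with tables limited to adjusted p-values under 0.01 and log2 fold changes beyond 1 in size. Other genes were not analysed here, and so the background is that of genes listed as responding to LPS. Positions in the tables disagree with the genes and were left aside.

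Members and lists were chosen with earlier results of these data known, and the roles were assigned after the members were seen. Genotype differences were tested with limma 3.58.1 (trend) on log2(scaled reads + 1), in the 6 libraries of each time, and the interaction in all 12, with Benjamini-Hochberg adjustment over 3281 genes and a threshold of 0.05. Log2 differences of genes with few reads are understated. Named genes were the 12 with the smallest share left, the 10 highest at 0 hr, up to 5 called genes per contrast and direction, up to 4 per list and those nearest the thresholds. Others named in text were chosen after their values were seen. Alternatives were pseudocounts of 0.5 and 5, a mean of at least 10, TMM, edgeR 4.0.16 and DESeq2 1.42.0 on the whole reads, genes of both tables, a shared spread, a replicate block and leaving out libraries. Deviations of same-numbered libraries correlated at 0.195 to 0.272 between genotypes at 0 hr, and within a genotype between the times at 0.171 to 0.376 in WT and 0.206 to 0.34 in S80A. The numbers were therefore taken to pair these libraries, from the data alone. The main fits were planned without this pairing and leave it out. Their calls are thus those of unpaired tests, and the counts with the replicate block are given in the last section. Between genotypes at 3 hr 1 of 3 pairs was under 0.1 (0.0724). Replicates differed by more than sampling noise (chi-square per gene 9.531 to 198.6). Fits were tested on simulated counts in which 200 of 3281 genes differed, drawn from those with a mean of at least 10. Of true differences of 1 (log2), 14% were found at 0 hr, 15% at 3 hr and 13% in the interaction. Of differences of 2 (log2), 61%, 76% and 59% were found. False calls were 5 of 80, 2 of 93 and 2 of 74. A gene that did not pass may therefore still differ 2-fold. Of the macrophage markers only CD14 and CEBPB are reported here. R 4.3.3 and Python 3.11.15 were used.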

Additional observations from a re-analysis of the deposited data

Results flagged for a closer look

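The LPS response differed between genotypes, by the limma interaction test with adjusted p under 0.05, for 8 of the 116 genes. The log2 difference of the response, S80A minus WT, was 1.97 for TMEM86A and 1.01 for MTUS1, which were less lowered in S80A. It was -1.68 for CDK5R1, -1.499 for C16orf54, -1.26 for SNX18, -1.15 for RPP25, -1.004 for DOK3 and -0.80 for FGD3, which were more lowered. All 8 were lowered in every library of both genotypes, so the difference is one of degree.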

How the results depend on the processing

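No result named here reversed: of 915 values of 58 gene results under the alternatives, 786 kept their call and 129 lost it. TMM scaling, chosen for the rule after seeing the data, gave 437 genes that met the rule, with all 116 among them, and 18 genes higher in S80A at 3 hr. With the replicate block, 4 genes were less lowered in S80A and 8 more lowered, against 2 and 6. The block gave 42 higher and 4 lower at 0 hr, and 26 higher and 12 lower at 3 hr. The block ended 4 of the calls on named genes (TFAP4 and CDK5R1 at 0 hr, with adjusted p of 0.054 and 0.0763, and USP2 and EVI2B at 3 hr, with 0.0513 and 0.0567). Without S80A replicate 1 at both times, also chosen after seeing the data, 7 genes were less lowered. In a fit of genes listed in both genotypes, 2 were more lowered. Leaving out 1 library gave 18 to 35 higher and 1 to 9 lower at 0 hr, 14 to 46 higher and 5 to 14 lower at 3 hr, 2 to 6 less lowered (6 without S80A replicate 1 at 3 hr) and 2 to 7 more lowered (2 without WT replicate 3 at 3 hr, 3 without WT replicate 1 or 3 or S80A replicate 2 at 0 hr or WT replicate 2 at 3 hr), and 110 to 124 genes that met the rule. With the median in place of the mean 113 genes met it, 101 of them among the 116. On the whole reads edgeR called 37 higher and 5 lower at 0 hr, 33 and 12 at 3 hr, and 2 less and 6 more lowered. DESeq2 called 43 and 5, 36 and 13, and 3 and 7. Depth limits the genes with few reads after LPS, such as PDK4 with 7 reads in WT.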
